A study of Homo sapiens with 8 samples.

Results

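A set of 554 regions of the human genome carried a strong ETO2-GLIS2 peak over a weak AML1-ETO peak in U937 cells after 48 h of induction. They were chosen by the deposited peak lists at 48 h. An ETO2-GLIS2 peak was taken if its −log10 q was at least 10, if it shared at least 1 bp with an AML1-ETO peak, and if every AML1-ETO peak that it overlapped had a −log10 q under 10. The 554 regions were 1.86% of the 29784 ETO2-GLIS2 peaks on chromosomes 1 to 22 and came from 10842 strong ones. Another 10142 of these overlapped at least 1 AML1-ETO peak at or above 10 and are called strong for both, while 146 overlapped no AML1-ETO peak. The −log10 q is the peak caller's measure of how unlikely the enrichment over input would be by chance, and "strong" and "weak" refer only to this value and its threshold of 10.

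The study compared the genome-wide binding of both leukemia fusion proteins in 1 cell type by ChIP-seq, in which DNA fragments bound by a protein are precipitated with an antibody and sequenced. U937 is a human monoblastic cell line, and each protein was expressed in its own stable line, line #4 for AML1-ETO and line #14 for ETO2-GLIS2. All lines carried a retroviral, doxycycline-inducible construct with an HA tag at the N-terminus of the protein, received doxycycline at 5 µg/ml for 12 or 48 h, and were precipitated with anti-HA beads. The series held 4 ChIP libraries, 1 for each protein and time, and 4 matching inputs. Each line grew from a single cell clone, so differences between the clones and differences between the proteins cannot be told apart. For the 12 h samples 1 protocol label named 48 h, whereas the titles and the treatment labels gave 12 h, which was used. There was no replicate, so no test between proteins or times was made. Intervals in parentheses are 95% intervals over regions and cover counting error only.

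AML1-ETO, the product of t(8;21), joins the Runt domain of RUNX1 to the corepressor protein ETO (RUNX1T1). ETO2-GLIS2, found in acute megakaryoblastic leukemia of children, joins ETO2 (CBFA2T3) to the zinc fingers of GLIS2. The Runt domain recognizes a short TGTGGT or TGCGGT core, and the GLIS zinc fingers recognize G-rich sites. The ETO part of AML1-ETO recruits corepressors and binds other transcription factors, the E-proteins among them. For ETO2-GLIS2 the study proposes that its ETO2 part binds E-proteins too, and that its recruitment of corepressors may be limited.

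Windows of up to 100 bp centered on the ETO2-GLIS2 summit are printed for 8 of the strongest regions, because the sequence under the summit was not used by the selection. The sequences are from GRCh37 (hg19), plus strand, 5′ to 3′, and carry the name of the nearest start site. Stretches annotated as UTR were left out, which shortened the first window to 61 bases and the second to 99. Capitals mark a run of 5 or more G, or of C where the G stand on the other strand, a pattern that was chosen after the sequences had been seen. No window held a Runt core or a CAGCTG E-box.
SLC25A42, chr19:19174742-19174802: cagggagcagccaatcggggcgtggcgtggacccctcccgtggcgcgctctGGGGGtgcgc
LYRM2, chr6:90348337-90348435: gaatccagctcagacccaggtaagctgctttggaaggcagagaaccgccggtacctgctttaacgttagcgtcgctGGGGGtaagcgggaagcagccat
CD34, chr1:208097094-208097193: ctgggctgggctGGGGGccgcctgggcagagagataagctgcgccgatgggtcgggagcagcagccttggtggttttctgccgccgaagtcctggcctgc
USP8, chr15:50716306-50716405: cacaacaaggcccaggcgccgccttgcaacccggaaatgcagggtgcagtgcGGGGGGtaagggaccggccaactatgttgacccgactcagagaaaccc
XRCC2, chr7:152373328-152373427: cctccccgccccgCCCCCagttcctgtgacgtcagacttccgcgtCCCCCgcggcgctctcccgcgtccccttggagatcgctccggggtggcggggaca
PHLDB3, chr19:44007996-44008095: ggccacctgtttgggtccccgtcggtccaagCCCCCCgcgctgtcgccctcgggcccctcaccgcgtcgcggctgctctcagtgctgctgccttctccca
KIF2C, chr1:45205292-45205391: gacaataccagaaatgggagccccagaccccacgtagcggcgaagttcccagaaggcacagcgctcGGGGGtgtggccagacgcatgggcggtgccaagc
SMIM35, chr11:117959463-117959562: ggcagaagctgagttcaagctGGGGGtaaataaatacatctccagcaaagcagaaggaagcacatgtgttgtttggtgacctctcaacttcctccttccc

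The 48 h values that defined the set are given as a description. The median −log10 q of ETO2-GLIS2 was 16.97 in the 554 regions, with a range from 10.0 to 312, and that of the strongest AML1-ETO peak over them was 6.45, with a range from 1.38 to 9.96. Most regions lay in the lower part of the strong ETO2-GLIS2 range, since 336 were under 20, 44 were at or above 50 and 14 at or above 100. Regions strong for both proteins had a median ETO2-GLIS2 value of 28.9 and a median AML1-ETO value of 90.6. The fold enrichment, which is the linear ratio of ChIP signal to local background at the summit, had a median of 9.48 for ETO2-GLIS2 and 4.33 for AML1-ETO in the 554 regions. Values of different libraries depend on depth and on the quality of the precipitation, so the 48 h folds of the 2 proteins are not compared as levels. The ETO2-GLIS2 peaks were also narrower, with a median width of 530 bp against 978.5 bp in regions strong for both, and the AML1-ETO peaks over them had a median width of 678 bp against 3308.5 bp.

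**Figure D1:**
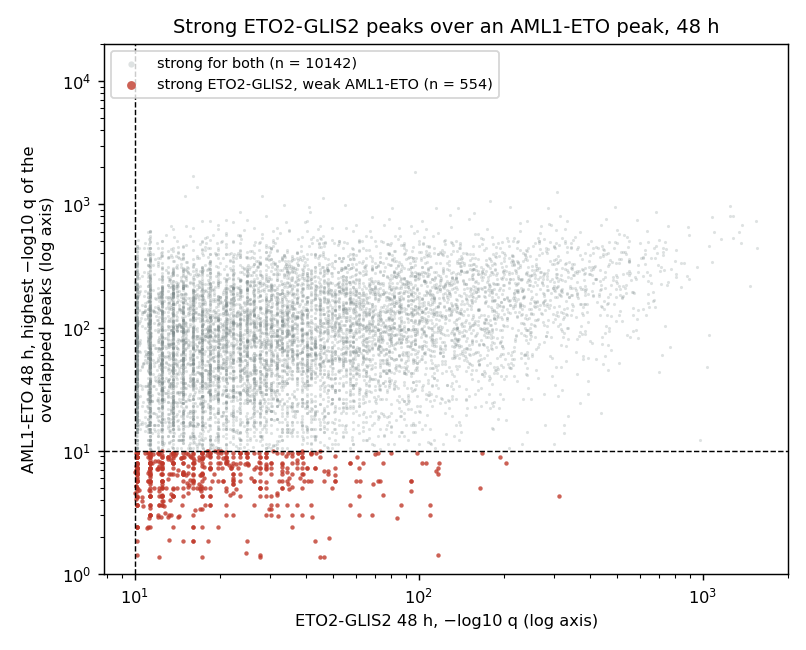
The plot shows strong ETO2-GLIS2 peaks that overlap an AML1-ETO peak at 48 h, with the −log10 q of ETO2-GLIS2 on the horizontal log axis and the highest −log10 q of the overlapped AML1-ETO peaks on the vertical log axis. Dashed lines mark the threshold of 10, below which the 554 selected regions lie, and the 10142 gray points above it are the regions strong for both proteins.

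The threshold cut through a continuous range. The weakest ETO2-GLIS2 peaks inside it, in an intron nearest to the start of ENSG00000286963 and at the promoter of MUL1, had values of 10.0 and 10.0. Among peaks over a weak AML1-ETO peak only, those just outside, near WWTR1-IT1 and COQ10B, had 9.93 and 9.92. For AML1-ETO a value just inside was 9.95 near TMEM132B, and the nearest outside were 10.0 at the EIF2AK1 promoter and 10.1 at the promoter of ENSG00000145063. Of the 554 regions, 384 had an AML1-ETO peak at or above 5 and 170 had one under 5, and 37 overlapped more than 1 AML1-ETO peak.

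The AML1-ETO peak did not always lie under the ETO2-GLIS2 summit. The summits of ETO2-GLIS2 and of the strongest AML1-ETO peak were a median of 132 bp apart (95% interval 112 to 158), and 341 of 554 pairs (61.6%) were within 200 bp. In regions strong for both the median was 141 bp (132 to 149), and 57.2% were within 200 bp. Of all ETO2-GLIS2 48 h peaks 38.5% were. An AML1-ETO peak covered the ETO2-GLIS2 summit in 473 of the 554 regions (85.4%, 82.2 to 88.2), and in the others it did not reach that summit. In regions strong for both the share was 99.7%. A strong AML1-ETO summit was found within 5 kb of 127 regions (22.9%), against 78.1% of all ETO2-GLIS2 48 h peaks and 97.3% of regions strong for both. Within 50 kb it was found for 467 (84.3%), against 96.7% and 100%, and its median distance was 11481.5 bp. The selection allowed no overlap with a strong AML1-ETO peak, so these lower shares are given as a description.

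The strongest region by ETO2-GLIS2 value lay at the promoter of SLC25A42, a mitochondrial carrier of coenzyme A, at chr19:19173858-19175583. Its ETO2-GLIS2 −log10 q was 312 at 48 h and 289 at 12 h, and its AML1-ETO value was 4.29 at 48 h and 10.6 at 12 h. The 48 h values follow from the selection, and the 12 h AML1-ETO peak passed the threshold. Its 48 h AML1-ETO peak ended before the ETO2-GLIS2 summit, at 19174348.

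At the promoter of LYRM2, which encodes a mitochondrial LYR-motif protein, ETO2-GLIS2 reached 202 at 48 h and 162 at 12 h (chr6:90347629-90348773). AML1-ETO reached 8.02 and 3.87 in the same order. The region nearest to CD34, the surface marker of blood stem and progenitor cells, was intergenic and lay 12397 bp upstream of a CD34 start site (chr1:208096904-208097384). ETO2-GLIS2 had 193 there at 48 h and 102 at 12 h, and AML1-ETO had 8.90 and 9.19. In both regions the AML1-ETO peaks stayed under the threshold at both times.

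Upstream of USP8, a deubiquitinase of the endosome, ETO2-GLIS2 had 167 at 48 h and 212 at 12 h, and AML1-ETO had 9.68 and 4.73 (chr15:50715114-50716636). At the promoter of XRCC2, a protein of homologous recombination, ETO2-GLIS2 had 164 and 112, whereas AML1-ETO had 4.98 at 48 h and no peak at 12 h (chr7:152373148-152373704). At the start of TTC17, ETO2-GLIS2 had 118 and 74.4, and AML1-ETO had 8.02 and 7.003 (chr11:43380229-43381263). USP8 was thus the only one of these 3 with the higher ETO2-GLIS2 value at 12 h.

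The remaining regions among the 10 strongest were close to each other in their 48 h ETO2-GLIS2 value. It was 117 in an intron of DENND3, a regulator of Rab GTPases, 117 at the promoter of PHLDB3, 117 at the start of SLC12A5-AS1, an antisense RNA at the gene of the neuronal chloride transporter SLC12A5, and 115 at the promoter of KIF2C, the mitotic kinesin that depolymerizes microtubules. Their AML1-ETO values at 48 h were 6.45, 7.22, 1.43 and 6.92. At 12 h their ETO2-GLIS2 values were 119, 83.1, 73.7 and 87.6, and AML1-ETO had 7.18 at DENND3, 15.5 at KIF2C and no peak at PHLDB3 and SLC12A5-AS1. At the promoter of SMIM35, inside TMPRSS4, which encodes a membrane serine protease, ETO2-GLIS2 had 109 at 48 h and 189 at 12 h, and AML1-ETO had 3.01 and 7.86 (chr11:117959063-117959827). SMIM35 was named for its 12 h values and is left out of the following count. All 10 regions named by their 48 h value had an ETO2-GLIS2 peak of at least 73.7 in the 12 h list, and 2 of the 10 had an AML1-ETO 12 h peak at or above 10.

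The 12 h libraries played no part in the selection, and they showed where the same regions stood earlier. At 12 h 462 of the 554 regions had an ETO2-GLIS2 peak (83.4%, 80.03 to 86.4), against 54.4% of all 29784 ETO2-GLIS2 48 h peaks. A peak at or above 10 was present in 358 (64.6%, 60.5 to 68.6), against 34.7% of all. An AML1-ETO peak was present in 314 (56.7%, 52.4 to 60.9), against 70.7% of all, and 1 at or above 10 in 59 (10.6%, 8.21 to 13.5), against 52.1% of all. The whole list is a loose comparison for ETO2-GLIS2, because 18942 of its peaks were under 10 at 48 h and the selection left these out. Of these weaker peaks 31.5% had an ETO2-GLIS2 peak at 12 h. The higher ETO2-GLIS2 shares of the selected regions are therefore given as a description. Their AML1-ETO shares were lower than in the whole list beyond counting error. The selection left out every region over a strong AML1-ETO 48 h peak, so this difference is a description too.

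The closer comparison was with the 10142 regions strong for both proteins at 48 h. Of these, 95.3% had an ETO2-GLIS2 peak at 12 h, which was 11.9 percentage points more than in the 554 (95% interval of the difference −15.3 to −9.01 for the selected regions minus the others). AML1-ETO peaks covered 97.7% of them at 12 h, and the difference was −41.0 points (−45.2 to −37.0). For AML1-ETO peaks at or above 10 the share was 85.9%, and the difference was −75.3 points (−77.6 to −72.3). A weak or missing AML1-ETO peak at 12 h was thus found in all but 59 of the 554 regions. The classes had been split by their AML1-ETO value at 48 h in the same line, so these AML1-ETO differences are given as a description. Of the 146 regions without an AML1-ETO 48 h peak, 24.0% had an AML1-ETO peak at 12 h and 2.05% had one at or above 10.

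Part of the difference for ETO2-GLIS2 moved with its 48 h strength. Among regions with a 48 h ETO2-GLIS2 value from 10 to under 15, 39.2% of 237 selected regions and 48.7% of 2398 regions strong for both had a 12 h ETO2-GLIS2 peak at or above 10. From 15 to under 25 the shares were 72.3% of 155 and 74.5% of 2161, from 25 to under 50 they were 92.4% of 118 and 96.2% of 2256, and at or above 50 they were 100% of 44 and 100% of 3327. For AML1-ETO peaks at or above 10 at 12 h the selected regions had 9.70%, 12.9%, 7.63% and 15.9% in these 4 bands, and the regions strong for both had 78.5%, 83.5%, 86.6% and 92.4%. The intervals of the AML1-ETO shares did not overlap between the classes in any of the 4 bands, whereas those of the ETO2-GLIS2 shares were apart in the lowest band and overlapped in the others. Since AML1-ETO at 48 h had split the classes, the AML1-ETO shares by band are a description as well.

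Taken region by region, 172 of the 554 met the whole selection rule in the 12 h lists (31.0%, 27.2 to 35.1), against 4.35% of all ETO2-GLIS2 48 h peaks and 8.26% of the regions strong for both. A further 139 (25.1%) had ETO2-GLIS2 at or above 10 with no AML1-ETO peak, so that 311 (56.1%) were strong for ETO2-GLIS2 and not for AML1-ETO at both times. At 12 h this state was found in 6.08% of all ETO2-GLIS2 48 h peaks and 9.52% of the regions strong for both. It was found in 59.6% of the 146 regions without an AML1-ETO 48 h peak, so it was not particular to the selected regions. Another 47 (8.48%) were strong for both proteins at 12 h, 12 were strong for AML1-ETO with a weak (4) or no (8) ETO2-GLIS2 peak, and 50 (9.03%) had no peak of either protein. The 50 regions without a 12 h peak were among the weaker at 48 h, with a median ETO2-GLIS2 value of 12.9, compared with 23.5 in the 172 that met the rule at 12 h.

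Applied to the 12 h lists alone, the same rule found 1439 regions. Of the 554 regions 173 (31.2%) overlapped 1 of these, and 173 of the 1439 (12.0%, 10.4 to 13.8) overlapped 1 of the 554. A larger part of the 1439, 863 or 59.97% (57.4 to 62.5), overlapped a region that was strong for both proteins at 48 h. On chromosomes 1 to 22 AML1-ETO had 70063 peaks at 12 h and 104677 at 48 h, and ETO2-GLIS2 had 28019 and 29784. The lists hold no read numbers, the sequencing depths that the study gives differ between its libraries, and the part of depth in the change between times was not tested.

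Where both proteins had a 12 h peak, their folds were set against each other. The log2 ratio of ETO2-GLIS2 fold to AML1-ETO fold had a median of 1.04 (0.84 to 1.13) over the 272 selected regions with both peaks, and of −0.07 (−0.10 to −0.03) over 9477 regions strong for both. The difference of the medians was 1.10 (0.90 to 1.203) on the log2 scale. ETO2-GLIS2 had the higher fold in 253 of the 272 (93.0%), against 40.6% of all ETO2-GLIS2 48 h peaks with both 12 h peaks and 48.0% of the regions strong for both. The ratio compares kinds of region within the same pair of libraries and is no measure of absolute levels. AML1-ETO at 48 h had split the classes, so their difference in the ratio is given as a description. Over the 31 regions without an AML1-ETO peak at 48 h that had both at 12 h, the median was 1.32 (0.71 to 1.90), which overlapped the interval of the selected regions.

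**Figure D2:**
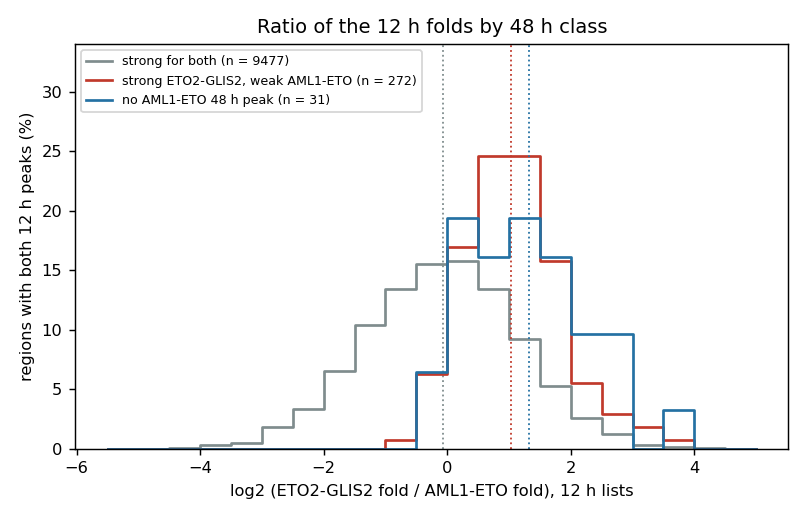
Lines give the percentage of regions in bins of the log2 ratio of ETO2-GLIS2 fold to AML1-ETO fold in the 12 h lists for the 48 h classes, and dotted lines mark the medians. The 272 selected regions center on 1.04 and the 9477 regions strong for both on −0.07.

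The 19 selected regions with a higher AML1-ETO fold at 12 h, and the 59 with an AML1-ETO value at or above 10, were the exceptions. The highest 12 h AML1-ETO values, singled out after they had been seen, were 41.6 at an intergenic region of chromosome 7 nearest to ENSG00000227017, 39.0 in an intron of LMTK2, which encodes a membrane-anchored kinase, and 36.4 at an intergenic region of chromosome 6 nearest to ENSG00000271114. ETO2-GLIS2 was also higher at 12 h than at 48 h in these regions, with 127 against 11.8, 60.2 against 22.2 and 76.8 against 15.7. Strong AML1-ETO at 12 h was more frequent in distal regions, where it was found in 42 of 274 (15.3%), than at promoters, where it was found in 17 of 280 (6.07%), a difference of 9.26 points (4.15 to 14.5). The share with a strong ETO2-GLIS2 peak at 12 h was 66.4% in distal and 62.9% in promoter regions, and that difference, 3.57 points (−4.38 to 11.4), was within counting error. Of the 47 regions strong for both proteins at 12 h, 12 (25.5%) were at promoters, compared with 87 of the 172 (50.6%) that met the rule at 12 h and 77 of the 139 (55.4%) without an AML1-ETO peak at 12 h.

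A transcription start site lay within 1 kb of the summit, called a promoter here, in 280 of the 554 regions (50.5%, 46.3 to 54.8), against 43.5% of all ETO2-GLIS2 48 h peaks. In regions strong for both it was 58.2%, a difference of −7.67 points (−11.9 to −3.42). The other selected regions were in introns (151), intergenic (86) and in exons (37). The exon share of 6.68% (4.75 to 9.09) exceeded the 3.42% of regions strong for both by 3.26 points (1.42 to 5.67). Its interval included the 5.85% of all ETO2-GLIS2 48 h peaks. In strong regions without an AML1-ETO peak the exon share was 10.3%, so an exon excess was not particular to the selected regions. The summit fell into coding sequence in 42 regions (7.58%, 5.52 to 10.1), against 5.47% of all ETO2-GLIS2 48 h peaks and 5.29% of regions strong for both. Of these 42 regions, 36 were also within 1 kb of a start site. Promoter regions were centered on the start site, with a median position of 0 bp (−18 to 8).

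The selected regions were less GC-rich than the regions strong for both. The median GC content of the 200 bp at the summit was 61.5% (61 to 63) against 65% (64.5 to 65). CpG-rich sequence, defined as at least 50% GC and an observed to expected CpG ratio of at least 0.6 over 500 bp, was found in 204 (36.8%, 32.8 to 41.0), against 28.8% of all ETO2-GLIS2 peaks and 46.2% of the regions strong for both. Chromosome 19 held 57 of the 554 and chromosome 17 held 55, which is 3.20% and 3.17% of the ETO2-GLIS2 peaks there. The 2 chromosomes had the highest shares of the 22, and chromosome 13 had the lowest with 6 regions, 0.779% of its peaks.

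The Runt core, TGTGGT or TGCGGT on either strand, was less frequent in the selected regions than in those strong for both. It was found within the 200 bp at the summit in 99 of the 554 regions (17.9%, 14.8 to 21.3), against 21.9% of all ETO2-GLIS2 48 h peaks and 25.4% of the regions strong for both, a difference of −7.51 points (−10.6 to −4.00). The 146 strong regions without an AML1-ETO peak held it in 12.3%, and the selected regions differed from them by 5.54 points (−1.44 to 11.1), so a low Runt share was not particular to the selected regions. In windows 1 kb to either side the share was 16.4% in the selected regions, so that the summit exceeded its own flanks by 1.44 points (−2.31 to 5.43). In regions strong for both it exceeded them by 9.15 points (8.17 to 10.1). At promoters 7.50% of the selected regions and 18.1% of the regions strong for both held the core (difference −10.6, −13.3 to −6.74). In distal regions 28.5% and 35.6% did (−7.12, −12.3 to −1.32). Of all ETO2-GLIS2 48 h peaks 16.96% held it at promoters and 25.6% in distal regions. The interval of the distal selected regions, 23.2 to 34.2, includes this 25.6%, so they were not low against all distal peaks. Strong regions without an AML1-ETO peak held the core in 3.77% at promoters and 17.2% in distal regions. The selected regions differed from these by 3.73 points (−5.61 to 8.32) and 11.3 points (1.02 to 19.7). The distal selected regions exceeded their flanks by 8.94 points (2.81 to 15.4), whereas the promoter ones differed from theirs by −5.89 (−9.88 to −1.39) and promoters strong for both by 3.04 (1.88 to 4.23).

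G-rich sequence was frequent at the summits of both classes. TGGGGGG, the core of the GLIS consensus, was found in 64 of the 554 regions (11.6%, 9.01 to 14.5), against 7.86% of all ETO2-GLIS2 peaks and 10.9% of the regions strong for both, with a difference of 0.63 points (−1.85 to 3.62). With ETO2-GLIS2 values from 10 to 20 in both classes the shares were 11.0% and 7.95%, a difference of 3.07 points (0.01 to 6.95). It exceeded the flanks of the selected regions, at 4.24%, by 7.31 points (4.55 to 10.4). The longer GLIS consensus was present in 1 of 554 and 71 of 10142. The run of GGGGG seen in the printed windows was held by 400 of the 554 within 200 bp (72.2%, 68.3 to 75.9), against 54.7% of all ETO2-GLIS2 peaks and 72.4% of the regions strong for both, and by 31.0% of the flanks. GGGGGT, also chosen after the sequences had been seen, was found in 177 (31.9%, 28.1 to 36.0), against 20.5% of all and 27.7% of the regions strong for both, and this difference was 4.27 points (0.42 to 8.36). GGGGG includes the matches of TGGGGGG and of GGGGGT.

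**Figure D3:**
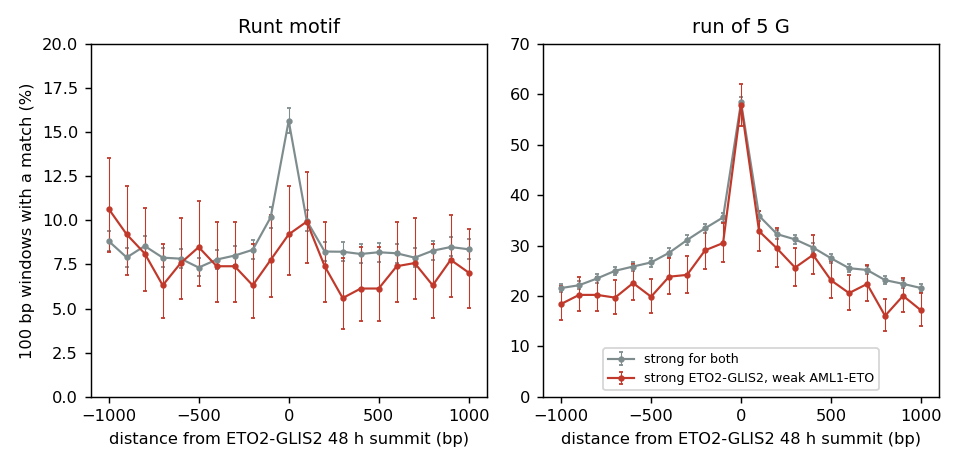
The plots give the percentage of 100 bp windows that held a Runt core (left) or a run of 5 G (right) against the distance from the ETO2-GLIS2 48 h summit, with 95% intervals over regions. At the summit the Runt share is 9.21% in the 554 regions and 15.6% in the regions strong for both, and the share with a run of 5 G is 57.9% and 58.5%.

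The E-box CAGCTG, the preferred site of several E-proteins, was found in 112 of the 554 (20.2%, 16.9 to 23.8), against 16.8% of all ETO2-GLIS2 peaks and 20.4% of the regions strong for both (difference −0.23, −3.47 to 3.39), and in 10.8% of the flanks. With ETO2-GLIS2 values from 10 to 20 in both classes its difference was 4.38 (0.09 to 9.27). The general E-box CANNTG, which includes CAGCTG, was found in 65.0% (60.8 to 69.0), an interval that includes the 63.4% of all ETO2-GLIS2 peaks. In regions strong for both it was found in 59.6%, a difference of 5.37 points (1.196 to 9.34). Taken apart, the difference was within counting error at promoters, 3.52 (−2.47 to 9.41), and in distal regions, 3.71 (−1.81 to 8.52). The flanks of the selected regions held CANNTG in 65.9%, so their summits had no excess of it. The GC box GGGCGG, a site of Sp proteins, was found in 32.3%, against 26.5% of all and 41.6% of the regions strong for both (difference −9.26, −13.1 to −5.14), and that difference was −8.99 (−14.9 to −3.05) at promoters and −2.93 (−6.71 to 1.79) in distal regions. CCAAT, the box bound by NF-Y, was found in 18.1%, against 16.6% of all and 13.5% of the regions strong for both (difference 4.55, 1.497 to 8.03). That difference was 3.01 (−0.97 to 7.88) at promoters and 6.09 (1.69 to 11.3) in distal regions. The flanks of the selected regions held CCAAT in 19.6%, so their summits had no excess of it (−1.53, −5.39 to 2.55). The differences for AP-1, −1.03 points (−2.67 to 1.203), for GATA, 1.78 (−0.50 to 4.60), and for the ETS site CCGGAAGT, −0.32 (−1.20 to 1.18), were within counting error.

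All 2080 distinct 6-base words were also counted, and the extremes were named by the size of the difference. AAGAAG was found in 16.1% of the selected regions and 8.81% of the regions strong for both, a difference of 7.25 points (4.37 to 10.6), followed by GACCCC (6.996), CCAGCA (6.15), TCTCCA (5.89) and ATGCAG (5.68). The words most in deficit were CCGCAG (−12.7), GCCCGC (−12.0), CCGCGC (−11.1), CCCGCG (−10.3) and GCGGCC (−10.2). All 5 words in deficit hold a CpG and none of those in excess does. The lower GC content moved with these differences, and its part in them was not tested. The extremes of 2080 counts were chosen by their size, so their intervals are a description.

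Of 19222 protein-coding genes, 700 (3.64%) had a selected region in the gene or within 20 kb upstream. ERCC1, a subunit of the nuclease of nucleotide excision repair, and GRAMD4, a mitochondrial protein linked to apoptosis, had 3 each. Both held more regions strong for both proteins, 5 at ERCC1 and 4 at GRAMD4. The regions of GRAMD4 lay in its introns, with ETO2-GLIS2 values at 48 h of 57.0, 19.7 and 17.2, AML1-ETO values of 3.63, 8.84 and 4.29, and ETO2-GLIS2 values at 12 h of 73.7 and 17.9 for the first 2 and no peak for the last. The regions counted for ERCC1 were 1 in its intron (39.0 for ETO2-GLIS2 and 6.45 for AML1-ETO at 48 h) and 2 upstream at RTN2 and PPM1N (43.4 and 38.8 for ETO2-GLIS2, 9.68 and 8.84 for AML1-ETO). All 3 had an ETO2-GLIS2 12 h peak, with 28.7, 31.2 and 20.2.

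Further genes held 2 regions each, and the first 3 by name are given. At GAK, a kinase of clathrin uncoating, ETO2-GLIS2 had 74.9 and 10.2 at 48 h, and 117 at 12 h in the first and no peak in the second. At HDLBP, which encodes the RNA-binding protein vigilin, the values were 24.8 and 19.7 at 48 h and 11.5 and 16.8 at 12 h, and the second region is the promoter of SEPTIN2. At KHSRP, an RNA-binding regulator of splicing and mRNA decay, both regions were at the promoter with 17.2 and 12.4 at 48 h and 32.5 and 14.6 at 12 h, and AML1-ETO had no 12 h peak in either. The AML1-ETO values at 48 h of these 6 regions lay between 4.39 and 9.68. Regions strong for both numbered 1 at GAK, 0 at HDLBP and 0 at KHSRP.

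Genes of hematopoiesis and of the fusion proteins were counted in 8 lists. Of the 124 genes, 121 were on chromosomes 1 to 22 and 2 of these (1.65%, 0.20 to 5.84) had 1, an interval that includes the 3.64% of all protein-coding genes, whereas 76 of the 121 (62.8%, 53.6 to 71.4) had a region strong for both, compared with 39.6% of all protein-coding genes. The genes with a selected region included ZFPM1, the cofactor of GATA1 known as FOG1. The region upstream of ZFPM1 (chr16:88514548-88515171) had ETO2-GLIS2 values of 20.4 at 48 h and 15.7 at 12 h, and AML1-ETO values of 5.70 and 3.87. ZFPM1 also held 3 regions strong for both. None of the 15 myeloid transcription factors, 20 Hedgehog and BMP genes, 14 megakaryocyte and platelet genes, 14 monocyte and granule genes, 12 AP-1 and immediate early genes or 15 cell cycle and apoptosis regulators had a selected region. Regions strong for both were found at 12 of 15 myeloid factors, 12 of 12 AP-1 and immediate early genes, 12 of 15 cell cycle and apoptosis regulators, 11 of 14 stem-cell and megakaryocyte regulators, 11 of 17 fusion partners and ETO family genes, 9 of 14 monocyte and granule genes, 7 of 20 Hedgehog and BMP genes and 2 of 14 megakaryocyte and platelet genes.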

How the data were processed

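Both HA-tagged fusion proteins were analysed by ChIP-seq in U937 lines from 4 deposited peak lists, 1 per protein and time (n = 1 library each). Per the study's methods and the submitters' processing notes, the authors aligned reads to hg19 with Bowtie2 2.2.9, used SAMtools 1.7 and deepTools, and called peaks with MACS2 2.1.1.20160309 against input. MACS2 settings, duplicate removal and artefact filters are not given in the sources used here. Each deposited list gives a display score, the fold enrichment over background (a linear ratio), the −log10 p and the −log10 q of each peak, and the summit offset. The score was not used. No list of an input was analysed, and the read numbers that the study gives were not used here, so intervals cover only counting error over regions.

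The regions and gene lists were chosen with earlier results of these data known. Peaks on chromosomes 1 to 22 were overlapped by at least 1 bp. Named were the 10 regions with the highest ETO2-GLIS2 −log10 q, the 6 highest that met the rule at 12 h, the 2 at the threshold on each side, up to 5 genes with most regions, and the strongest region of each gene list. Some regions named by this rule are not reported here. Start sites, exons and UTRs came from GENCODE 44 lifted to GRCh37, and sequences from GRCh37. Matches of 15 motifs, and of 2 more (GGGGG and GGGGGT) added after the sequences had been seen, were counted on both strands. The windows were 200 bp around the ETO2-GLIS2 48 h summit and 1 kb to either side. A gene held a region if the summit lay in it or within 20 kb upstream. Intervals are Clopper-Pearson for shares, Newcombe for differences and order-statistic for medians, all at 95%. Python 3.11.15, numpy 2.4.6, pandas 2.3.3, scipy 1.17.1, pysam 0.24.0, matplotlib 3.10.9 and bedtools 2.31.1 were used. The steps were tested on simulated data, in which 4000 of 4000 regions and 10200 of 10200 motif windows were recovered, and overlaps differed from bedtools in 0 of 30096. Alternatives changed the thresholds, the overlap, joining of peaks, chromosomes, the 12 h matching and the motif and promoter windows.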

Additional observations from a re-analysis of the deposited data

How the results depend on the processing

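Of 99 values under alternative settings 76 stayed close to the reported ones and 23 moved. The sign was kept in all alternatives except for TGGGGGG and CAGCTG, where it was kept in 10 of 13 each, and both reported intervals include 0. Requiring ETO2-GLIS2 at or above 20 left 218 regions, AML1-ETO under 5 left 170, summits within 200 bp left 361, and a rule on ranks within each list in place of the threshold left 225. All differences below are the selected regions minus regions strong for both, in percentage points except for the median log2 ratio, which is on the log2 scale. With ETO2-GLIS2 at or above 20 they were −2.71 for an ETO2-GLIS2 12 h peak, −78.65 for an AML1-ETO 12 h peak at or above 10, −2.85 for promoters (interval −9.60 to 3.67) and −4.61 for CAGCTG. With AML1-ETO under 5 they were −52.4 for any AML1-ETO 12 h peak and −78.8 for one at or above 10. With a threshold of 5 for both they were −35.1 for ETO2-GLIS2, −56.0 and −72.2 for AML1-ETO, −16.7 for promoters, and 0.85 for the median log2 ratio. By rank they were −49.5 and −78.2 for AML1-ETO. With ETO2-GLIS2 from 10 to 20 in both classes they were −69.35 for AML1-ETO at or above 10, 1.27 for the log2 ratio and 4.38 for CAGCTG. A 12 h peak over the summit gave −51.9 for AML1-ETO. The Runt difference was −11.5 with summits within 200 bp and −13.9 at the AML1-ETO summit, and its interval included 0 with AML1-ETO under 5 (−5.97, −11.3 to 0.68). The causes were not tested. Leaving out a replicate was not possible with 1 library per condition. No paired analysis was possible because each condition had 1 library and no test was made between conditions.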
